A study of Homo sapiens with 8 samples.

Results

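The genes of the MYC, MAX and MXD network were followed in human keratinocytes whose mitochondria had been depolarized. The members were the 8 genes whose symbols in the deposited table were MYC, MAX, MNT, MGA, MXD1, MXD3, MXD4 and MXI1, out of 61806 genes listed, and all 8 were among the 14893 genes with enough reads to be tested (at least 10 counts in at least 4 libraries). The cells were wild-type N/TERT-1 cells, a single line of epidermal keratinocytes immortalized with telomerase and grown in serum-free medium with epidermal growth factor and bovine pituitary extract. They received ethanol, the solvent control, or oligomycin with antimycin A (O/A), which block the mitochondrial ATP synthase and complex III. Each group held 4 libraries of poly(A)-selected RNA, each a separate biological replicate per the labels. The labels give no dose or time, and the study's legends give 10 µM oligomycin, 4 µM antimycin A and 4 hours.

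MYC is a short-lived transcription factor of the basic helix-loop-helix leucine zipper class that binds DNA only as a dimer with MAX, at E-boxes of the core form CACGTG, and drives genes of growth, ribosome synthesis and cell division. MXD1, MXI1, MXD3, MXD4 and MNT compete for MAX and for the same sites, and bring the SIN3 and histone deacetylase corepressor. MGA also pairs with MAX, carries a T-box domain besides, and is the scaffold of a Polycomb complex, PRC1.6. In the epidermis MYC is known for its place in the proliferating basal layer, and MXD1 for its rise as keratinocytes differentiate.

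The promoters of 3 antagonists are shown because they hold the members' clearest rise (MXD1) and the members' matches to the CACGTG E-box (MNT and MXD4). The sequences are RefSeq windows of build GRCh38.p14, from 250 bases before to 50 bases after the annotated start, written 5′ to 3′ on the gene's strand. Capitals mark CACGTG in MNT and MXD4, and the looser E-box CANNTG in MXD1, which holds no CACGTG.
MXD1, chr2:69914859-69915158, plus strand: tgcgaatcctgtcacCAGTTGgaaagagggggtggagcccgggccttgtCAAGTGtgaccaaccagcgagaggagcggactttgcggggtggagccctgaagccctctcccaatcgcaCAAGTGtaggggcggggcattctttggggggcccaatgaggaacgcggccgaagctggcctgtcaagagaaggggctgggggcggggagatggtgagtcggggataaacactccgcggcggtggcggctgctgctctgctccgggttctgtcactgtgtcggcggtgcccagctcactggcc
MNT, chr17:2401011-2401310, minus strand: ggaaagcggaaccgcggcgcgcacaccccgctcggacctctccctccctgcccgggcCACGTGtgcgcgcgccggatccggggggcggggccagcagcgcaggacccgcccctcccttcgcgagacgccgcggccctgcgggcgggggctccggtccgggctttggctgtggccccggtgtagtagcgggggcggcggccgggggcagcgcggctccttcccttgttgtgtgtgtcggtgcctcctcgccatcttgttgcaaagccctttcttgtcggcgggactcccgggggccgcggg
MXD4, chr4:2262060-2262359, minus strand: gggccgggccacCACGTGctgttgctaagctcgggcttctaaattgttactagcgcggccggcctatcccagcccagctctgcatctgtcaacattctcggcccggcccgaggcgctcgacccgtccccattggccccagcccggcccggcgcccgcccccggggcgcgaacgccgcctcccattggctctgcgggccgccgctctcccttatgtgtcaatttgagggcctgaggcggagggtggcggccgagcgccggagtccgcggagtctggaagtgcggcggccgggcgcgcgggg

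Windows were found for 7 of the 8 members, 12 windows in all because MAX, MGA and MXI1 had more than 1 start. The letters CACGTG, which read the same on both strands, stood in 2 of these 12 windows, 193 bases before the start in MNT and 238 bases before it in MXD4. Among all 35116 RefSeq windows of this length 7.26% held CACGTG. The looser CANNTG, which includes CACGTG and also reads the same on both strands, stood in 7 of the 12 windows and in 68.7% of all windows. In MXD1 it occurred 3 times, 235, 201 and 132 bases before the start. The motif TGATGNAA, bound by ATF4 with C/EBP partners and searched on both strands, stood in 0 of the 12 windows and in 3.62% of all windows. These are matches of letters and no binding was measured.

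The libraries held between 17210404 and 20999927 counts assigned to genes. A gene was called when edgeR's quasi-likelihood test gave a Benjamini-Hochberg adjusted P of at most 0.05 over all genes tested and the absolute log2(FC), O/A over ethanol, was above 0.25. By this rule 34.7% of the genes tested were called, 15.8% higher and 18.9% lower in O/A, and in 47.6% of them the 4 O/A and the 4 ethanol libraries did not overlap. The 10 keratinocyte markers were all tested and summed to 4410 to 4700 FPKM in ethanol and 4020 to 4200 in O/A. Of these, KRT5 (1433 to 1128 FPKM, log2(FC) -0.30) and SFN (-0.28) were called lower and DSG3 (0.99) higher. Fibroblast, melanocyte and endothelial or immune markers summed to at most 2.94, 0.66 and 0.89 FPKM in any library, and of them CD68 was called higher (0.520 to 0.752 FPKM, log2(FC) 0.56). The part of these markers in the members' values was not tested. In bulk RNA such as this, fewer cells of a type and less RNA per cell cannot be told apart.

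Among the 8 members 5 were called, 3 of them higher (MXD1, MNT and MXI1) and 2 lower (MYC and MGA), against the 34.7% of all genes given above. The groups of libraries did not overlap for these same 5 members, beside 47.6% of all genes tested. The member with the largest rise was MXD1 and the one with the largest fall was MYC, while MAX, the partner of both, was not called. The median log2(FC) of the 8 members was 0.03, beside -0.00040 over all genes tested.

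**Figure D1:**
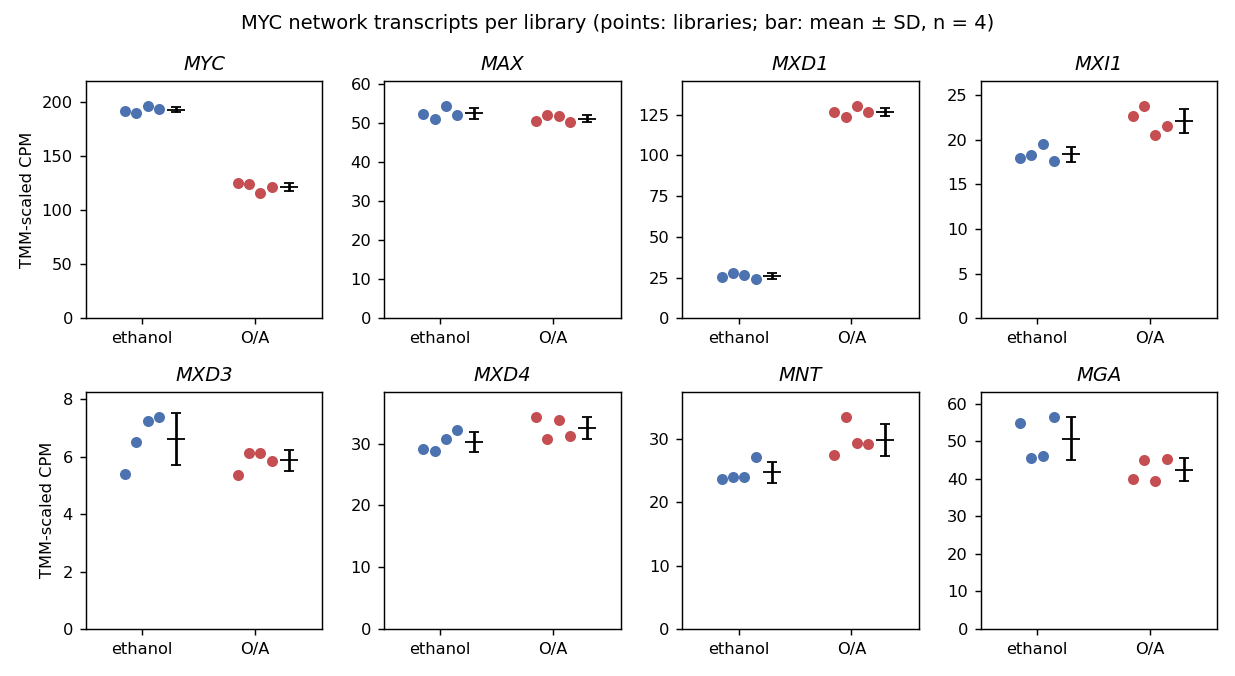
Level of each network member in each library, in CPM, a count relative to its library total, scaled between libraries by the trimmed mean of M values (TMM, y axis from 0), for 4 ethanol and 4 O/A libraries. Points are libraries and bars are mean ± SD. MYC runs from 191 to 196 in ethanol and from 116 to 125 in O/A, MXD1 from 23.9 to 27.9 and from 124 to 130, and the MAX groups overlap.

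MYC (ENSG00000136997), the activator, lies on chromosome 8 of GRCh38 from 127735434 to 127742951. Its level in ethanol libraries 1 to 4 was 192.3, 190.6, 196.3 and 193.7 TMM-scaled CPM, and in O/A libraries 1 to 4 it was 125.0, 124.0, 115.9 and 121.8. Every O/A library was thus below every ethanol library, and the gap was many times the spread inside either group (193.2 ± 2.42 and 121.7 ± 4.06, SD, n = 4 each). MYC fell by 0.67 on the log2 scale (SE 0.03, 95% interval -0.73 to -0.61), to 0.63 of its ethanol level, with an edgeR adjusted P of 2.57e-25. An exact two-sided permutation test of the 8 values gave P = 0.0286, the smallest that 4 against 4 libraries allow. Of the genes tested 981 had a more negative log2(FC), so MYC was not at the extreme of the table. It stayed the most abundant member per exonic length, at 42.8 ± 0.67 FPKM in ethanol and 26.1 ± 0.92 in O/A. FPKM are fragments scaled by library size and by the exonic length of the gene, not the length of a transcript.

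MAX (ENSG00000125952), the partner that MYC and all of its antagonists share, lies on chromosome 14. It was at 52.25, 51.09, 54.22 and 52.14 TMM-scaled CPM in ethanol and at 50.39, 52.05, 51.67 and 50.28 in O/A. The groups overlapped and the log2(FC) was -0.04, with a 95% interval of -0.12 to 0.05 and an edgeR adjusted P of 0.486. The interval leaves out changes past the call threshold of 0.25 in either direction. MAX shares 56479 bases of its span with FNTB, a farnesyltransferase gene on the other strand with a log2(FC) of -0.91. No strand setting was given, and the part of FNTB reads in the MAX value was not tested. On the deposited FPKM scale the MAX groups did not overlap (8.50 ± 0.24 in ethanol and 8.03 ± 0.15 in O/A). FPKM carries no TMM scaling, and the TMM factors were lower in all O/A libraries than in all ethanol libraries, over a range of 0.982 to 1.02.

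MXD1 (ENSG00000059728), also known as MAD1, is the antagonist of the family that is best known from differentiating cells. It lies on chromosome 2 from 69897688 to 69942945 in the table. Its level was 25.59, 27.93, 26.71 and 23.88 TMM-scaled CPM in ethanol and 126.6, 123.8, 130.1 and 126.9 in O/A, from 469 to 508 and from 2201 to 2457 counts. The lowest O/A library was more than 4-fold above the highest ethanol library. MXD1 rose with a log2(FC) of 2.29 (SE 0.04), a fold of 4.89 with a 95% interval of 4.61 to 5.18 and an edgeR adjusted P of 3.8e-42. The exact two-sided permutation P was again 0.0286. Only 53 of the 14893 genes tested had a larger log2(FC), and MXD1 was called in each of the 19 alternative settings that were run.

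The RefSeq start of MXD1, inside the window printed above, lies 17421 bases downstream of the start in the table, which extends over SNRNP27, a spliceosome gene on the same strand, for 7888 bases. SNRNP27 itself went from 445 to 476 counts with ethanol to 482 to 549 with O/A, with a log2(FC) of 0.20, so the size of the MXD1 rise was not seen in the gene it overlaps.

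MXI1 (ENSG00000119950), also called MAD2, the relative of MXD1 on chromosome 10, was at 17.99, 18.28, 19.54 and 17.58 TMM-scaled CPM in ethanol and at 22.6, 23.71, 20.49 and 21.55 in O/A. The groups were apart by less than 1 TMM-scaled CPM. The log2(FC) was 0.27 (SE 0.06, 95% interval 0.14 to 0.40), a fold of 1.21, with an edgeR adjusted P of 0.000357. MXI1 passed the fold threshold narrowly, and its log2(FC) came to 0.248 without ethanol library 4 and 0.241 without O/A library 2, under the threshold in both.

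MXD3 (ENSG00000213347), the member of the family linked to dividing cells, was the least abundant of the network, with 93 to 157 counts per library. It was at 5.387, 6.506, 7.234 and 7.381 TMM-scaled CPM in ethanol and 5.349, 6.143, 6.141 and 5.862 in O/A. The groups overlapped, and the log2(FC) of -0.17 had a 95% interval of -0.40 to 0.05 and an edgeR adjusted P of 0.198. At this depth a fall past the threshold could not be told from no change. The value is uncertain for a second reason, since MXD3 shares bases with RAB24 on its own strand and with PRELID1 on the other.

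MXD4 (ENSG00000123933), also called MAD4, was at 29.14, 28.83, 30.76 and 32.25 TMM-scaled CPM in ethanol and 34.28, 30.82, 33.88 and 31.21 in O/A. The groups overlapped. The log2(FC) was 0.10, with a 95% interval of -0.0041 to 0.21 and an edgeR adjusted P of 0.0995.

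Of the 4 MXD family members, MXD1 and MXI1 were thus called and MXD3 and MXD4 were not. MXD1 made up 31.5% ± 2.0 of the summed FPKM of MXD1, MXI1, MXD3 and MXD4 in ethanol and 67.3% ± 0.75 in O/A (SD, n = 4 each). The ratio of MXD1 to MXI1 on the same scale went from 1.27 to 1.42 in the ethanol libraries to 4.85 to 5.91 in the O/A libraries.

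MNT (ENSG00000070444), the antagonist that is expressed in most cells whether they divide or rest, lies on chromosome 17. It was at 23.7, 24.0, 24.04 and 27.13 TMM-scaled CPM in ethanol and 27.55, 33.46, 29.33 and 29.14 in O/A. The groups met closely, since ethanol library 4 stood just under O/A library 1, and on the FPKM scale they overlapped. The log2(FC) was 0.27 (SE 0.06, 95% interval 0.15 to 0.39), a fold of 1.21, with an edgeR adjusted P of 0.000138. Without O/A library 2, the highest of the 8, it was 0.22 and under the fold threshold.

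MGA (ENSG00000174197), the MAX partner of PRC1.6, lies on chromosome 15 and has the greatest exonic gene length of the network, 19590 bases. It was at 54.73, 45.48, 46.14 and 56.37 TMM-scaled CPM in ethanol and 39.97, 44.94, 39.44 and 45.11 in O/A. The highest O/A library lay just below the lowest ethanol library, and ethanol libraries 1 and 4 stood above the other two. The log2(FC) was -0.26 (SE 0.08, 95% interval -0.44 to -0.09), with an edgeR adjusted P of 0.0162. Leaving out ethanol library 1, ethanol library 4, O/A library 1 or O/A library 3 brought the log2(FC) to -0.226, -0.205, -0.237 and -0.229, each short of the fold threshold, and the adjusted P without O/A library 1 was 0.0542 by edgeR.

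**Figure D2:**
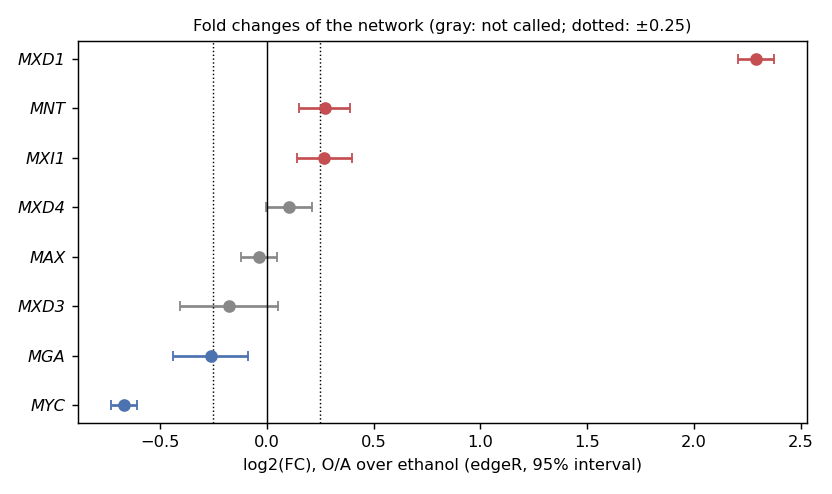
log2(FC), O/A over ethanol, of the 8 members from edgeR (x axis), with 95% intervals as bars. MXD1 at 2.29 and MYC at -0.67 stand clear of the dotted call threshold of 0.25, the intervals of MNT, MXI1 and MGA cross it, and gray marks the members not called.

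**Figure D3:**
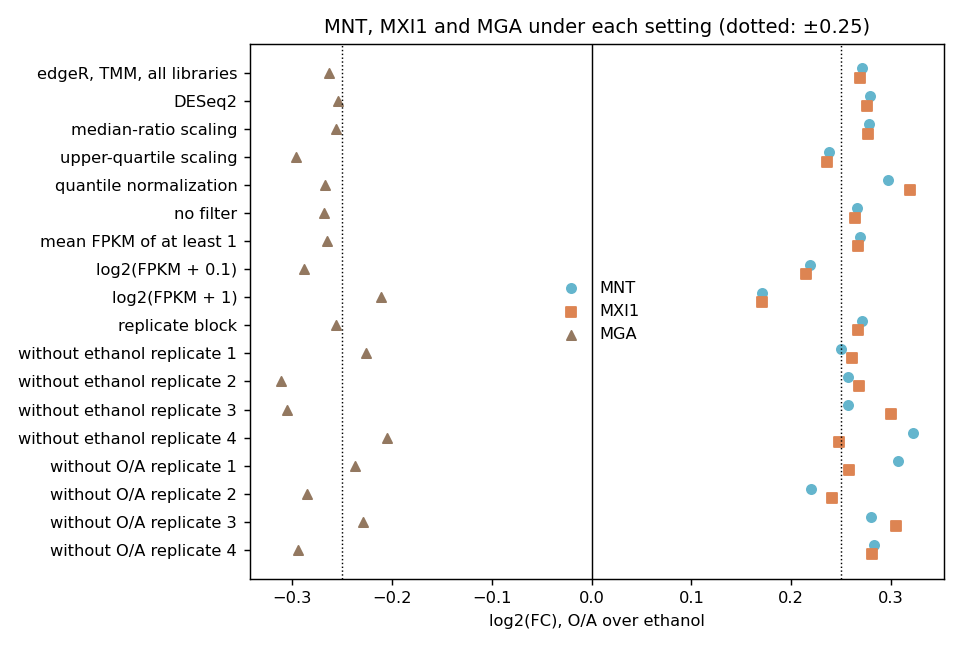
log2(FC) of MNT, MXI1 and MGA (x axis) under each processing setting (y axis), with dotted lines at the call threshold of 0.25. No point changes sign, and MGA lies inside the threshold in 4 of the 8 settings that leave out 1 library, MXI1 in 2 and MNT in 1.

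Per exonic length of the gene, the order of the members in ethanol was MYC (42.8 FPKM), MAX (8.50), MXD4 (4.47), MXD1 (4.16), MXI1 (3.15), MNT (2.88), MGA (2.62) and MXD3 (1.42). The libraries of MXD4 and MXD1 overlapped in this order, as did those of MXI1 and MNT and those of MNT and MGA, so these neighbours did not differ beyond their spread. In O/A the order was MYC (26.1), MXD1 (19.6), MAX (8.03), MXD4 (4.65), MXI1 (3.68), MNT (3.38), MGA (2.13) and MXD3 (1.22). MXD1 had moved from the fourth place to the second, above MAX in every O/A library. The other members kept their order, and among neighbours MXI1 and MNT overlapped. In FPKM the loss of MYC, 16.6 units between the group means, and the gain of MXD1, 15.5 units, were of similar size.

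The sum of the 6 antagonists (MXD1, MXI1, MXD3, MXD4, MNT and MGA) was 18.15 to 19.22 FPKM in ethanol and 34.42 to 34.93 FPKM in O/A. Without MXD1 the sum was 13.95 to 15.41 and 14.78 to 15.71, which overlap, so the rise of the sum lay in MXD1. Divided by MYC, the antagonist sum was 0.428, 0.436, 0.435 and 0.449 in the ethanol libraries and 1.29, 1.31, 1.41 and 1.32 in the O/A libraries. MYC transcripts outweighed the summed antagonists in each ethanol library and were outweighed in each O/A library. The ratio of MYC to MAX went from 5.03 ± 0.067 to 3.25 ± 0.14 (SD, n = 4 each), and MYC with all antagonists summed to 61.5 ± 1.1 FPKM in ethanol and 60.8 ± 0.87 in O/A. These ratios are descriptions of transcript levels and were not tested, and no protein was measured. They also rest on the exonic length used for each gene, such as 4584 bases for MYC and 6351 for MXD1.

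**Figure D4:**
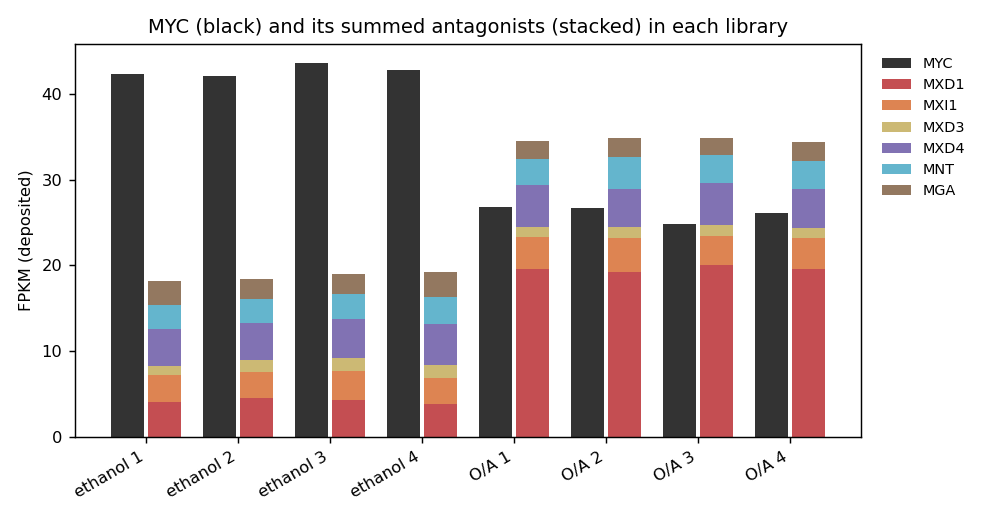
FPKM (y axis from 0) of MYC, in black, and of the 6 antagonists stacked beside it, in each of the 8 libraries. The stack is below the MYC bar in all ethanol libraries, at 18.15 to 19.22, and above it in all O/A libraries, at 34.42 to 34.93, with MXD1 as its largest piece.

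The genes whose profiles over the 8 libraries were closest to those of MYC and MXD1 were sought among 6472 protein-coding genes with a mean of at least 5 FPKM, by the root mean square difference of centred log2 CPM. Nearest to MYC were NOP16, a nucleolar protein (0.033), AMD1, an enzyme of polyamine synthesis (0.034), and LUZP1, a cytoskeletal protein (0.035), with log2(FC) of -0.63, -0.68 and -0.65. Nearest to MXD1 were PPP1R15A, which restores translation after stress by targeting a phosphatase to eIF2α (0.068), TXNIP, a thioredoxin-binding protein that MondoA induces (0.086), and FAM107B (0.092), with log2(FC) of 2.32, 2.28 and 2.13. With 2 groups of libraries such a likeness rests mainly on the size of the shift between them.

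Of the 5 remaining proteins of the wider network, 4 were tested and 2 were called, both lower. Of all genes tested 34.7% were called and 18.9% were called lower. MYCL, a MYC paralogue, fell from 97 to 119 counts in ethanol to 22 to 33 in O/A, with a log2(FC) of -1.82 (SE 0.16, edgeR adjusted P 1.45e-14). In FPKM it was low beside MYC, at 1.13 in ethanol and 0.312 in O/A. MLXIP, or MondoA, the glucose-sensing partner of MLX, fell by 0.29 on the log2 scale (edgeR adjusted P 4.61e-06), and without ethanol library 4 its log2(FC) of -0.23 was short of the threshold. MLX had a log2(FC) of -0.11, MLXIPL had 9 to 17 counts per library and a log2(FC) of 0.42 with an edgeR adjusted P of 0.233, and MYCN had 0 counts in every library.

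None of the 12 genes of the SIN3 and histone deacetylase corepressor was called by edgeR, beside 34.7% of all genes tested. Their log2(FC) ran from -0.23 to 0.18. The adjusted P was at most 0.05 in 6 of them, SIN3A (-0.17) and SUDS3 (0.18) included, beside 7999 of all 14893 genes tested. The unadjusted P was under 0.05 in the same number, 6, beside 8628 of all genes tested. DESeq2 called 0 of the 12 as well, while ARID4A was called lower under upper-quartile scaling, on log2(FPKM + 0.1) and without ethanol library 2 or 3 (-0.26 to -0.25). Of the 10 genes of PRC1.6 besides MGA, 3 were called (30%, near the 34.7% of all genes tested). RYBP, which stimulates the ubiquitin ligase of the complex, rose by 0.46, and L3MBTL2 and PCGF6, subunits that mark this form of the complex, had log2(FC) of -0.71 and -0.28. PCGF6 was not called under quantile normalization or without O/A library 1 (-0.23 in both). L3MBTL2 shares its place with an antisense gene, L3MBTL2-AS1, whose counts went from 43 to 61 in ethanol to 282 to 378 in O/A, and since no strand setting was given the reads of both could not be told apart.

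Among 15 coactivators and partners of MYC, 4 were called (26.7%, below the 34.7% of all genes tested). ZBTB17, or MIZ1, through which MYC represses genes, rose by 0.43, and CREBBP, a histone acetyltransferase, rose by 0.39. KAT2A, the GCN5 acetyltransferase, had a log2(FC) of -0.28, and of -0.24 without ethanol library 1, where it was not called. Among 18 genes that set the turnover of the MYC protein, 3 were called (16.7%, beside 34.7% of all genes tested) and all were lower, namely SKP2 (-1.15) and TRIM32 (-0.52), which are ubiquitin ligase components, and AURKA (-0.85), a mitotic kinase that also stabilizes MYC family proteins. FBXW7, GSK3B and the others of this list were not called. HUWE1, another ubiquitin ligase, had a log2(FC) of 0.32 and an edgeR adjusted P of 0.0562, and was called higher in 4 alternatives, DESeq2 and the fit without ethanol library 4 among them (0.27 to 0.42).

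Of 17 factors that act on the MYC gene or its messenger RNA, 16 were tested and 5 were called (31.2%, near the 34.7% of all genes tested). ZFP36 and ZFP36L1, which bind AU-rich elements and promote decay of the transcripts that hold them, rose by 0.71 and 0.47. TCF7L2, the Wnt pathway factor, and CTCF had log2(FC) of -0.73 and -0.27. Of the neighbours of MYC, the noncoding PVT1 had 379 to 547 counts and a log2(FC) of 0.04 with an edgeR adjusted P of 0.615. PCAT1 rose, with a log2(FC) of 0.96 on 13 to 55 counts, and overlaps LRATD2 on the other strand, which had a log2(FC) of 1.00. CASC11 and POU5F1B had at most 13 counts, and CCAT1 was not analysed here.

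Of 47 genes that MYC is known to activate, all were tested and 27 were called, 24 lower and 3 higher, where 18.9% and 15.8% of all genes were. Their median log2(FC) was -0.26. This list, like the others, was written with earlier results of these data known. The largest falls were those of UBTF, a factor of RNA polymerase I (17.7 to 9.58 FPKM, log2(FC) -0.84, edgeR adjusted P 1.59e-26), and PPAN, a ribosome assembly protein (-0.81), which shares bases with P2RY11. NOP56 (-0.64), POLR1B (-0.68), GRWD1 (-0.67) and MYBBP1A (-0.68) also fell. When the list was divided by role after the values had been seen, 17 of its 24 nucleolar genes were called, all lower, and 10 of the other 23 were called, 7 lower and 3 higher. The 3 that rose were SHMT2, of serine and one-carbon metabolism (0.88), TFRC, the transferrin receptor (0.71), and ODC1, of polyamine synthesis (0.52).

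Of 15 genes that MYC is known to repress, 13 were tested and 8 were called. Of these 6 were higher and 2 lower, where 15.8% and 18.9% of all genes tested were. The median log2(FC) of the 13 was 0.24. DDIT3, the stress factor CHOP, rose from 11.3 to 163 FPKM (log2(FC) 3.90, edgeR adjusted P 1.41e-47), and overlaps MARS1 on the other strand. The cyclin-dependent kinase inhibitors CDKN2B and CDKN1A rose by 1.19 and 0.29, GADD45A by 0.75, NDRG1 by 0.59 and FTH1 by 0.42. THBS1, a matrix protein that restrains vessel growth, went the other way, from 774 to 305 FPKM (-1.30), as did CEBPA (-0.34, edgeR adjusted P 0.0211). The call of CEBPA was lost in 6 alternatives, by DESeq2, quantile normalization and log2(FPKM + 1) and without ethanol library 3, ethanol library 4 or O/A library 3 (-0.33 to -0.24), and that of CDKN1A in 3 (0.14 to 0.24). DDIT3 and SHMT2 are also known targets of ATF4, and the share of MYC or of its antagonists in any of these changes was not tested. Over all these lists, with each gene once, 52 of 136 genes tested were called (38.2%), 16 higher and 36 lower, a share near the 34.7% of all genes tested.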

How the data were processed

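Poly(A)-selected RNA from 4 ethanol-treated and 4 O/A-treated cultures was sequenced. Per the submitters' processing notes, HISAT2 (2.0.1), HTSeq (0.6.1), DESeq2 and build GRCh38.p13 were used. The annotation release and the strand setting are not given in the sources used here. The authors deposited raw counts per gene and FPKM, which is scaled by length and by library total, for each library. Their deposited table of comparisons (log2 fold changes with standard errors, test statistics, p-values and mean normalized signals) was not used.

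Counts were tested with edgeR (4.0.16; R 4.3.3) by quasi-likelihood after TMM scaling, group being the only term, on genes that reached 10 counts in 4 or more libraries. Benjamini-Hochberg adjustment covered all 14893 genes tested. CPM values are TMM-scaled. Of 20417 genes with no symbol, 20380 were named from a gene name table. Simulated counts for this comparison held 14893 genes, 200 of them changed, as many by 1 as by 0.5 on the log2 scale. Of the 200, edgeR recovered 166, namely 92 changed by 1 and 74 changed by 0.5, with 2 false calls. Far fewer genes were changed there than the 5165 called in the data, so these figures need not hold at that share.

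The members and the lists were chosen with earlier results of these data known. Named genes were the members, the 2 called genes with the largest rise and the 2 with the largest fall of each list, all genes of lists of 5 or fewer, the nearest profiles and overlapping genes. Further called genes of the lists, SIN3A, SUDS3, ARID4A, FBXW7, GSK3B, HUWE1 and the markers were named after their values had been seen. Of the called genes in the lists, 1 is counted but not reported here by name. Replicate numbers were checked and not used as pairs. Same-group libraries differed beyond sampling noise (chi-square per degree of freedom 1.72 to 5.48), so none was a copy. The alternatives were DESeq2 (1.42.0), other scalings and filters, limma (3.58.1) on log2 FPKM with pseudocounts of 0.1 and 1, other fold thresholds, a replicate block and each library left out.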

Additional observations from a re-analysis of the deposited data

Results flagged for a closer look

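In 5 of the 68 groups of 4 libraries examined for the members and named genes, 1 library stood apart from the other 3 by Dixon's criterion, where chance alone gives about 1 in 20, or 3.4. MNT was at 27.13 TMM-scaled CPM in ethanol library 4 and at 23.7 to 24.04 in the other ethanol libraries. The same library was high for PVT1, at 25.72 against 21.93 to 22.43, and for ZFP36L1, at 227.4 against 198.1 to 199.3. MLXIP was at 92.2 in O/A library 1 and at 96.32 to 97.09 in the other O/A libraries. TFRC was at 352.9 in ethanol library 2 and at 364.0 to 365.8 in the other ethanol libraries.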

How the results depend on the processing

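MYC and MXD1 kept their direction in all 19 alternatives, with log2(FC) of -0.72 to -0.64 and 2.00 to 2.32, and no member called in the report reversed. MXD1 was called in each, and MYC in each except under an absolute log2(FC) above 1, where MYC (-0.667), MXI1 (0.269), MNT (0.271) and MGA (-0.263) were no longer called and 1 member, 5 pathway genes and 797 genes in all were. With no fold threshold 95 pathway genes and 7999 genes in all were called, beside 52 and 5165. Upper-quartile scaling left 3 members called (MXI1 0.236, MNT 0.238), as did log2(FPKM + 0.1) (MXI1 0.215, MNT 0.219), and log2(FPKM + 1) left 2 (MXI1 0.171, MNT 0.171, MGA -0.211). With 1 library left out, 3 to 5 members were called, 3 of them without ethanol library 4 or O/A library 2, and the log2(FC) ranged from 0.241 to 0.305 for MXI1, 0.22 to 0.322 for MNT and -0.311 to -0.205 for MGA. Without MGA the median ratio of the antagonist sum to MYC was 0.381 in ethanol and 1.23 in O/A, beside 0.435 and 1.31. A division of the MYC-activated genes, chosen after seeing the data, left 7 of the 24 lower calls outside the nucleolar genes. With the replicate block 5 members and 5160 genes in all were called, and the block changed no member's call. Same-numbered ethanol and O/A libraries did not deviate together (r from -0.023 to 0.068), and not every library correlated best with its own number. The cause of these differences was not tested. Counts of 93 to 157 per library limit MXD3, and counts of 22 to 33 in O/A limit MYCL, and all p-values measure the spread between 4 libraries of 1 cell line.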

Other observations

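Genes that overlap a member in the coordinates of the table had values of their own. FNTB, the beta subunit of farnesyltransferase, lies on the strand opposite to MAX and fell from 125 to 173 counts in ethanol to 65 to 85 in O/A (log2(FC) -0.91, edgeR adjusted P 4.86e-09). RAB24, a small GTPase linked to autophagy, shares 2284 bases with MXD3 on the same strand and rose from 38 to 56 counts to 70 to 83 (log2(FC) 0.73, edgeR adjusted P 3.77e-05). PRELID1, on the other side of MXD3, had 2245 to 2721 counts in ethanol and a log2(FC) of -0.02.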
